A study of Homo sapiens with 15 samples.

Results

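The genes of the proteasome were followed in cultures of HEK293T, a human cell line made from embryonic kidney, that had spent 4 h with a compound or its vehicle. Members were taken by name, as every gene symbol of the count table that begins with PSMA, PSMB, PSMC, PSMD, PSME, PSMF or PSMG and a digit, without hyphenated symbols. The rule found 45 of 13243 genes, and all 45 passed the filter on low counts. PSMC3IP is caught by the rule through its name alone, since it encodes a factor of meiotic recombination, so that 44 are genes of proteasome subunits, activators, inhibitors or assembly factors.

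The groups were Tg (thapsigargin, a blocker of calcium uptake into the endoplasmic reticulum, labelled an activator of the unfolded protein response, UPR), IXA1, IXA4 and IXA6 (each labelled an activator of the IRE1/XBP1s branch of that response) and DMSO, the vehicle. All cells were of the same line and were held at the same temperature for the same time. Tg, IXA4, IXA6 and DMSO had 3 libraries each and IXA1 had 2, because 1 count column matched no sample title and was not used. The labels state no dose, so the compounds are set side by side at matched time and unknown dose.

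The proteasome is the protease that destroys proteins tagged with ubiquitin, including misfolded proteins drawn out of the endoplasmic reticulum (ER). Its core, the 20S particle, is a barrel of outer alpha rings and inner beta rings, and the beta subunits PSMB5, PSMB6 and PSMB7 hold the cutting sites. The 19S cap on the end of the barrel has a base of ATPases (PSMC genes), which unfold the substrate, and a lid (most PSMD genes), whose subunit PSMD14 strips ubiquitin off. Assembly chaperones such as the PSMG products help the barrel and the cap to form. When proteasome activity falls short, the transcription factor NFE2L1 (NRF1) is known to raise the subunit genes together, through antioxidant response elements in their promoters.

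Total counts ran from 14160321 to 15726742 per library, and edgeR put the biological coefficient of variation at 5.66%. Values are CPM, counts relative to library size after edgeR's TMM scaling, and a gene is said to have passed the test at an adjusted p under 0.05 in edgeR's quasi-likelihood test, adjusted over all 13243 genes. Treatment could be read from 2 UPR genes. The ER chaperone gene HSPA5 (BiP) averaged 5270.1 ± 159.6 CPM with Tg, 820.0 ± 26.3 with IXA1, 846 ± 3.03 with IXA4, 855 ± 13.6 with IXA6 and 524 ± 17.9 with DMSO (SD), and DNAJB9, a target of XBP1s, rose 6.67-fold with Tg and between 2.23-fold and 2.45-fold with the IXA compounds. Of 10 markers of the HEK293 and kidney lineage 9 were measured, among them SALL1 at 39.7 to 59.3 CPM and PAX2 at 0.819 to 1.81 CPM. Of 13 markers of blood, endothelium, liver, fibroblasts and astrocytes 3 were measured (COL1A1, COL3A1 and GFAP), and their sum ran from 12.8 to 16.1 CPM with Tg, 17.6 to 17.7 with IXA1, 13.9 to 16.8 with IXA4, 13.9 to 16.4 with IXA6 and 16.4 to 16.8 with DMSO. The other 10 were not analysed here. Their part in any result was not tested. In such bulk samples a change in the make-up of the culture and a change in RNA per cell cannot be told apart.

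Transcripts of the proteasome were plentiful. The 44 genes together took 0.683 ± 0.012% of all counts with Tg, 0.690 ± 0.014% with IXA1, 0.699 ± 0.008% with IXA4, 0.695 ± 0.011% with IXA6 and 0.709 ± 0.006% with DMSO (SD). After TMM scaling the order changed, with a sum of 7086 ± 181 CPM for Tg, 6950 ± 133 for IXA1, 6870.3 ± 108.6 for IXA4, 6871 ± 150 for IXA6 and 7004 ± 109 for DMSO. Tg thus lay below DMSO in its share of raw counts, by more than the SD of either group, and above it in scaled counts, by less than the SD of either group.

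Levels can be compared between genes only per length, as CPM per kilobase of the principal transcript of GENCODE release 29 (DMSO means). The standard beta subunit genes spanned 92.9 to 238 CPM per kilobase, with the catalytic genes PSMB7 at 153, PSMB5 at 118 and PSMB6 at 115. PSMB10, the interferon-inducible counterpart of PSMB7 in the immunoproteasome, stood at 11.6 ± 0.595 CPM per kilobase (SD, n = 3). The other inducible genes PSMB8 and PSMB9 were not analysed here. Among the ATPase genes PSMC1 stood lowest, at 10.9 CPM per kilobase, where the highest, PSMC3, had 93.1. PSMC1 is also the member with 13 named pseudogenes, and the handling of reads that match several places is not stated. The lowest member was PSMD5, an assembly chaperone of the cap, at 4.44 CPM per kilobase. For genes with long alternative exons the length decides the level: PSME3, which encodes the nuclear activator PA28-gamma, had 471 CPM per kilobase of its principal transcript and 104 per kilobase of all its exons merged.

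With Tg, 8 of the 45 members passed the test, 7 of them higher and 1 lower than with DMSO. The risers were PSMG1, PSMA5, PSMC4, PSMD14, PSMC2, PSMD7 and PSMC3IP, and PSMD11 fell. Of the 44 proteasome genes 7 passed, or 15.9%, where 35.8% of all genes tested passed, 18.8% higher and 17% lower. Among the 8730 genes with a mean level in the members' range the share was 43.6%, so fewer proteasome genes passed than genes of like level. All Tg libraries lay above all DMSO libraries in 8 of the 44 genes, and below them in 3. Of all genes 21.7% lay wholly above in this way and 21.8% wholly below. The changes were small as well: the median of the members' log2 fold changes was 0.04, against -0.01 over all genes, and the median of their absolute size was 0.09, against 0.17. The percentage beyond a 1.2-fold change was 2.27% of the proteasome genes, against 34.0% of all genes. Among the genes of like level 26.7% went beyond it, and the median absolute size was 0.15. Within groups the members had a median SD of 0.071 on the log2 scale, near the 0.081 of genes of like level, where all genes had 0.10.

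**Figure D1:**
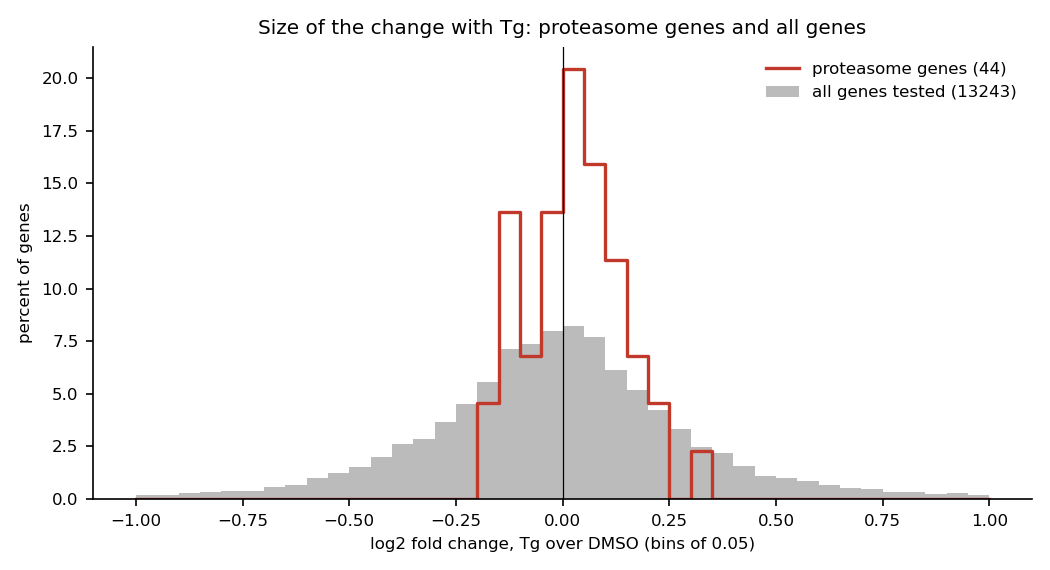
Percentage of genes (vertical axis) by log2 fold change of Tg over DMSO in bins of 0.05 (horizontal axis). The red line gives the 44 proteasome genes and the grey bars all 13243 genes, of which 2.43% lie beyond the range drawn. The proteasome genes crowd around 0 and only PSMG1 lies past 0.26, the log2 value of a 1.2-fold change.

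The direction of the small changes rests on the scaling. Upper-quartile factors in place of TMM lowered the median of all genes by 0.042 on the log2 scale, and with them 11 members passed, 4 higher and 7 lower, where 37.5% of all genes passed, with a member median of -0.01. PSMG1, PSMA5, PSMC4 and PSMC3IP rose and PSMD11 fell under every scaling tried, whereas PSMC2, PSMD7 and PSMD14 did not pass with upper-quartile factors. Single libraries mattered too. In 41 of 44 genes Tg replicates 1 and 2 lay on opposite sides of the Tg mean. The members share these libraries and the share of all genes was not counted, so this does not set the members apart. The count of members called was 5 without Tg replicate 1 or without DMSO replicate 1, and 12 without Tg replicate 2. Over all genes 3843 to 5009 passed when 1 Tg or DMSO library was left out, so the whole table moved too.

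PSMG1 changed most. It encodes the assembly chaperone PAC1, which with its partner PAC2 (PSMG2) guides the building of the alpha ring. PSMG1 stood at 161, 152 and 169 CPM in the Tg libraries, at 116 and 119 with IXA1, at 126, 133 and 133 with IXA4, at 136, 131 and 132 with IXA6, and at 126, 135 and 130.5 with DMSO. Every Tg library lay above every other library. Against DMSO the rise was 1.23-fold, a log2 fold change of 0.30 ± 0.05 (SE, adjusted p = 4.06e-05), and it kept this call in all 13 alternatives. Its partner PSMG2, at 39.1 ± 3.26 CPM with Tg and 37.3 ± 3.74 with DMSO, overlapped between the groups (log2 fold change 0.07 ± 0.08 SE, adjusted p = 0.529).

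Among the 7 alpha ring genes, PSMA5 alone passed the test with Tg. Its CPM were 228, 194 and 204 with Tg, 167 and 162 with IXA1, 164, 163 and 177 with IXA4, 188, 162 and 174 with IXA6, and 174, 179 and 177 with DMSO. Again all Tg libraries lay above all the others. The log2 fold change over DMSO was 0.24 ± 0.06 (SE, adjusted p = 0.00253), and the alpha ring as a whole summed to 1599.6 ± 111.7 CPM with Tg and 1584 ± 27.2 CPM with DMSO. The remaining alpha genes ran from -0.10 to 0.12 in log2 fold change.

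The 6 ATPase genes of the cap's base all lay above 0 with Tg, with a median log2 fold change of 0.13 (5 of 6 and 0.09 with upper-quartile factors), and 2 of them passed. PSMC4 (RPT3) had 123, 142 and 136 CPM with Tg against 117, 113 and 113 with DMSO, a log2 fold change of 0.22 ± 0.05 (SE, adjusted p = 0.00203), and no IXA library exceeded 115.5 CPM. PSMC2 (RPT1) had 205, 185 and 192 CPM with Tg against 167, 170.1 and 182 with DMSO, a log2 fold change of 0.16 ± 0.05 (SE, adjusted p = 0.0177). For both genes the Tg and DMSO libraries did not overlap. The call of PSMC2 was lost without Tg replicate 1 (adjusted p = 0.0936), DMSO replicate 1 (0.0845) or DMSO replicate 2 (0.0708). The PSMC2 gene overlaps PMPCB, which encodes a mitochondrial processing protease and rose alike, at 130.5 ± 5.15 CPM with Tg and 117 ± 3.09 with DMSO (log2 fold change 0.16 ± 0.05 SE, adjusted p = 0.0128). No source used here states whether counting used strand, so reads of the pair may be shared, and the value of PSMC2 is uncertain to that extent. Summed over the ATPase genes the level was 711 ± 15.7 CPM with Tg and 648 ± 17.7 CPM with DMSO (SD, n = 3 each).

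In the lid, of 8 genes 2 rose and 1 fell with Tg. PSMD14 (RPN11), the deubiquitinase, had 144, 125 and 142 CPM with Tg against 115, 124 and 125 with DMSO, so that the lowest Tg library lay among the DMSO libraries. Its log2 fold change was 0.18 ± 0.06 (SE, adjusted p = 0.0169), and the adjusted p reached 0.0965 when a library was left out, the call being lost without Tg replicate 1, Tg replicate 3 or DMSO replicate 1. PSMD7 (RPN8), its partner in the lid, had 237, 214 and 231 CPM with Tg against 198, 209.6 and 212 with DMSO (log2 fold change 0.14 ± 0.05 SE, adjusted p = 0.0271), and lost its call without any of Tg replicates 1 and 3 or DMSO replicates 1 and 2, with an adjusted p of up to 0.133. PSMD11 (RPN6), a scaffold between cap and core, was the member that fell. It had 183, 208 and 217 CPM with Tg, all below the 233, 229 and 224 CPM with DMSO (log2 fold change -0.17 ± 0.05 SE, adjusted p = 0.0169). The lowest of these values came from Tg replicate 1, and without that library the adjusted p was 0.119, and 0.0588 without DMSO replicate 1.

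None of the 7 standard beta genes passed with Tg, and their log2 fold changes ran from -0.11 to 0.10. PSMB5, the chymotrypsin-like site, had 137, 145 and 143 CPM with Tg against 142, 157 and 159 with DMSO (log2 fold change -0.11 ± 0.05 SE, adjusted p = 0.128). PSMB6, the caspase-like site, had 88.0, 99.96 and 96.2 CPM against 95.2, 103 and 95.02 (log2 fold change -0.05 ± 0.06 SE, adjusted p = 0.579), and PSMB7, the trypsin-like site, 159, 159 and 164 CPM against 145, 147 and 158 (log2 fold change 0.10 ± 0.05 SE, adjusted p = 0.169). The intervals of these differences reach from -0.22 to 0.21, which leaves room for changes of that size. PSMB10 had the lowest log2 fold change of all members, -0.18 ± 0.09 SE, from 12.8, 12.3 and 12.4 CPM with Tg against 13.6, 13.9 and 15.0 with DMSO, and did not pass (adjusted p = 0.147), though its groups did not overlap. The activator genes PSME1, PSME2, PSME3 and PSME4 lay between -0.03 and 0.14 and the inhibitor gene PSMF1 at 0.00, none past the threshold. PSMC3IP, which is no proteasome gene, had 44.8, 43.6 and 45.6 CPM with Tg against 37.2, 36.3 and 38.4 with DMSO (log2 fold change 0.26 ± 0.06 SE, adjusted p = 0.00262). It overlaps MLX, whose log2 fold change was 0.09 ± 0.06 SE (adjusted p = 0.233).

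**Figure D2:**
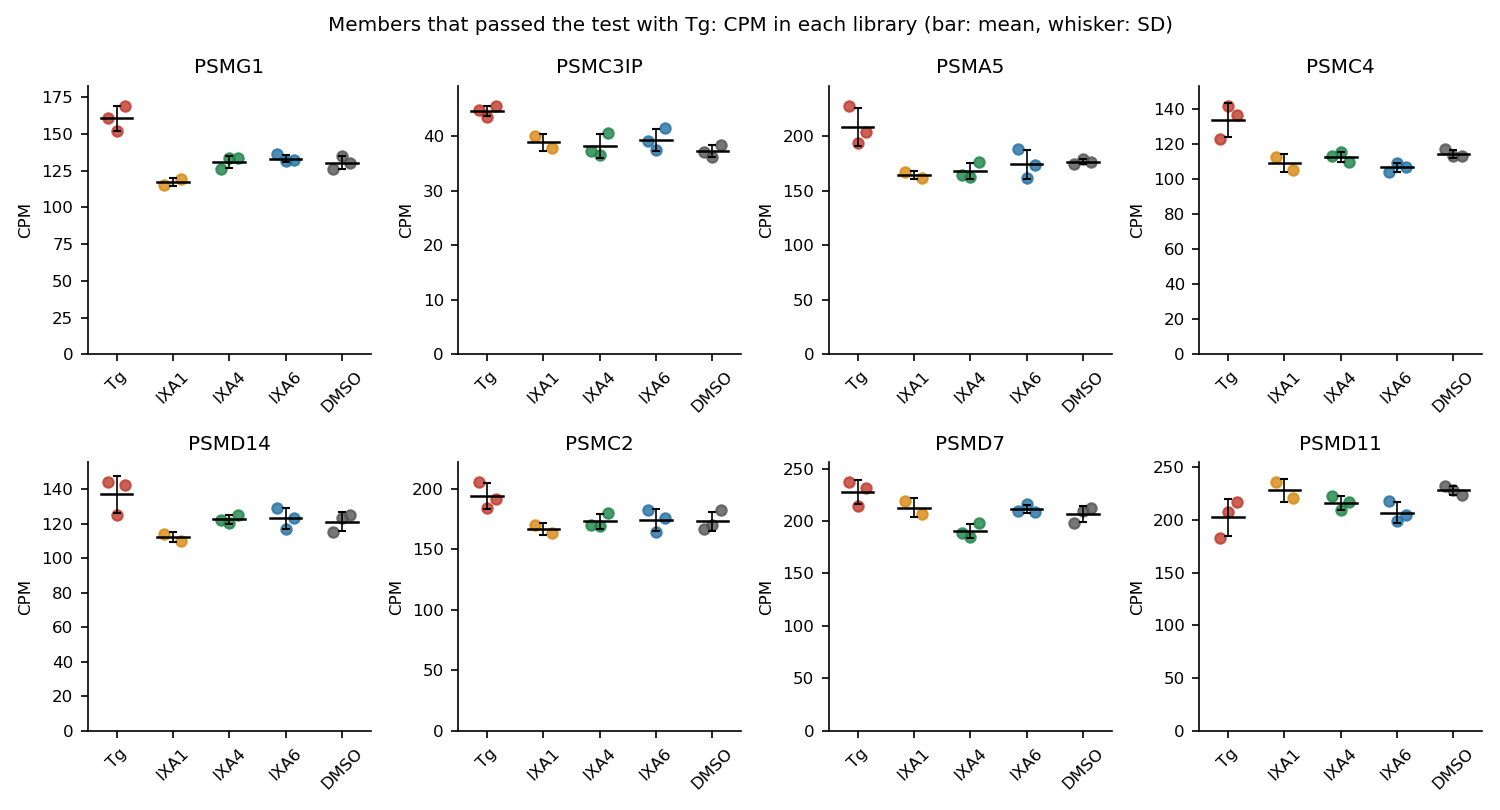
CPM (vertical axes, from 0) in each library of the 8 members that passed the test with Tg, by group; points are libraries, horizontal bars means and whiskers SD (3 libraries a group, 2 for IXA1). For PSMG1, PSMA5 and PSMC4 all Tg points lie above those of every other group, while the PSMD14 points of Tg and DMSO meet at 125 CPM.

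Promoters are shown for the 3 proteasome genes whose rise with Tg held in every alternative and for PSMD11, which fell. RefSeq's table (GRCh38.p14, 250 bases before to 50 after the start site) held an entry for 39 of the 45 members. Capitals mark the core of the antioxidant response element, TGACNNNGC, or the CCAAT box, CCAAT, on either strand; those on the other strand appear as their reverse complements. Each sequence is written 5′ to 3′ on the gene's strand. PSMG1 lies at chr21:39183402-39183701 (minus strand), PSMC4 at chr19:39970915-39971214 (plus strand), PSMA5 at chr1:109426399-109426698 (minus strand) and PSMD11 at chr17:32444260-32444559 (plus strand).
PSMG1: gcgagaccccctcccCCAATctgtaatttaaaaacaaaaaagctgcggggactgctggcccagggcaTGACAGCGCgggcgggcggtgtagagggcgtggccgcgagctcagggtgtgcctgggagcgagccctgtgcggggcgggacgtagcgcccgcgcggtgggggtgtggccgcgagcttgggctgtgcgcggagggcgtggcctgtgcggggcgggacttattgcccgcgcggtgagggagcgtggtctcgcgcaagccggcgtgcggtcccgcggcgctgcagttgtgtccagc
PSMC4: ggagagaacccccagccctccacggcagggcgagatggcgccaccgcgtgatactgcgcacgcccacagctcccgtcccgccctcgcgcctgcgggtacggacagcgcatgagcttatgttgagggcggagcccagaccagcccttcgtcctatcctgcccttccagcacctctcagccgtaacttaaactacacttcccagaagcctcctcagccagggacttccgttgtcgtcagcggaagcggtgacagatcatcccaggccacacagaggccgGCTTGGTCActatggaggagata
PSMA5: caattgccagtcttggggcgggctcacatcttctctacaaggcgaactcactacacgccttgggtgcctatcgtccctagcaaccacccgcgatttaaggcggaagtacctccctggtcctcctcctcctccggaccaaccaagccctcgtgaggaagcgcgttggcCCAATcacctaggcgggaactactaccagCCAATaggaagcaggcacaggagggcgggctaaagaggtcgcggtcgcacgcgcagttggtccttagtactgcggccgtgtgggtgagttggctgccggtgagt
PSMD11: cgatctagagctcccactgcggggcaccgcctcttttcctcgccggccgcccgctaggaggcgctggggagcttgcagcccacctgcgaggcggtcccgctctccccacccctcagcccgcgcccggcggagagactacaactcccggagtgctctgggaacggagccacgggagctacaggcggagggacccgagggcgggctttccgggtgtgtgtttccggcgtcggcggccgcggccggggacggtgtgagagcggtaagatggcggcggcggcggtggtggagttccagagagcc

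PSMG1 holds 1 antioxidant response element core and 1 CCAAT box, PSMC4 holds 1 antioxidant response element core, PSMA5 holds 2 CCAAT boxes, and PSMD11 holds neither. Of the 48 promoter entries of members 14 (29.2%) hold the antioxidant response element core, where 13.3% of all 35116 promoters of that length hold it. The CCAAT box stands in 41.7% of the members' entries and 34.6% of all. The ER stress element (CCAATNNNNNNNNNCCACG, which holds a CCAAT box), the core of the UPR element (TGACGTGG) and the ATF4 composite core (TGATGCAA), also searched on both strands, are in 0 of 48, and in 0.077%, 0.729% and 0.866% of all promoters. These are matches of letters in a window of 300 bases and say nothing of binding.

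Genes of the pathway outside the naming rule were read from a list of their own. Of its 34 genes 33 were measured, and DDI1 was not analysed here. With Tg 13 rose and 3 fell, 48.5% of 33, near the 43.6% of the genes in the members' range of levels, where 35.8% of all genes passed, and the median log2 fold change was 0.10, against -0.01 over all genes. ZFAND2A (AIRAP), a stress-induced protein that attaches to the cap, rose 2.94-fold. It had 36.0, 36.9 and 34.0 CPM with Tg, 12.5 and 14.3 with IXA1, 12.4, 15.8 and 15.5 with IXA4, 13.7, 14.4 and 15.0 with IXA6 and 11.1, 12.4 and 12.9 with DMSO, a log2 fold change of 1.55 ± 0.09 for Tg (SE, adjusted p = 2.01e-12). ZFAND5, a related zinc finger protein that binds the proteasome, rose by 0.35 ± 0.05 on the log2 scale (SE, adjusted p = 4.32e-06).

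Factors known to bind the cap differed in size and direction of change. UCHL5 (UCH37), a deubiquitinase of the cap, had 262, 234 and 248 CPM with Tg against 178, 184 and 192 with DMSO (log2 fold change 0.42 ± 0.06 SE, adjusted p = 1.84e-06), and KIAA0368 (now ECPAS), a scaffold of the proteasome, stood at 159.8 ± 3.11 CPM with Tg against 128 ± 2.05 with DMSO (SD; log2 fold change 0.31 ± 0.05 SE, adjusted p = 8.92e-06). UBE3C, a ubiquitin ligase bound to the proteasome, fell: 182, 195 and 191 CPM with Tg lay below 242, 247 and 227 with DMSO (log2 fold change -0.33 ± 0.05 SE, adjusted p = 3.38e-06). Of 3 others, chosen after their values were seen, TXNL1, a thioredoxin of the cap, rose (log2 fold change 0.24 ± 0.06 SE, adjusted p = 0.0040), while the deubiquitinase gene USP14 and the assembly factor gene PAAF1 both had a log2 fold change of 0.02 and did not pass (adjusted p = 0.773 and 0.913). Nor did POMP, the maturation chaperone of the core, at -0.11 ± 0.06 SE, or the subunit genes outside the naming rule, the ubiquitin receptor gene ADRM1 at 0.10 ± 0.05 SE and SHFM1 (now SEM1) at -0.04 ± 0.08 SE. VCP (p97), the segregase that pulls proteins out of the ER membrane for the proteasome, had 509.9, 563.9 and 540.3 CPM with Tg against 394, 408 and 403 with DMSO (log2 fold change 0.42 ± 0.04 SE, adjusted p = 6.73e-08). Its set of 8 genes, shuttles and segregase, did not move as 1. In it 3 rose (VCP, RAD23B and UBQLN1) and 2 fell, with a median log2 fold change of 0.02. The falls were NPLOC4 (log2 fold change -0.30 ± 0.06 SE, adjusted p = 6.37e-04) and UBQLN2 (-0.20 ± 0.06 SE, adjusted p = 0.0078).

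Among the regulators, NFE2L2 (NRF2) and its partner MAFG rose with Tg. NFE2L2 had 127, 126 and 130.4 CPM with Tg against 85.9, 86.1 and 84.3 with DMSO (log2 fold change 0.58 ± 0.05 SE, adjusted p = 1.34e-09), and MAFG 36.2, 40.1 and 34.1 CPM against 28.2, 28.1 and 23.8 (log2 fold change 0.46 ± 0.08 SE, adjusted p = 1.11e-04). NFE2L1, singled out after its values were seen, had 153, 172 and 180.1 CPM with Tg against 151, 150.2 and 154 with DMSO, and the groups overlapped (log2 fold change 0.15 ± 0.05 SE, adjusted p = 0.0279). Of the 7 regulators measured 3 passed, all higher. MAFK, likewise singled out, had 8.24 ± 0.458 CPM with Tg against 10.9 ± 1.72 with DMSO (SD). MAFK did not pass (log2 fold change -0.40 ± 0.18 SE, adjusted p = 0.0930), though its groups did not overlap. All 8 genes of this list named by rule kept their calls in all 13 alternatives.

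**Figure D3:**
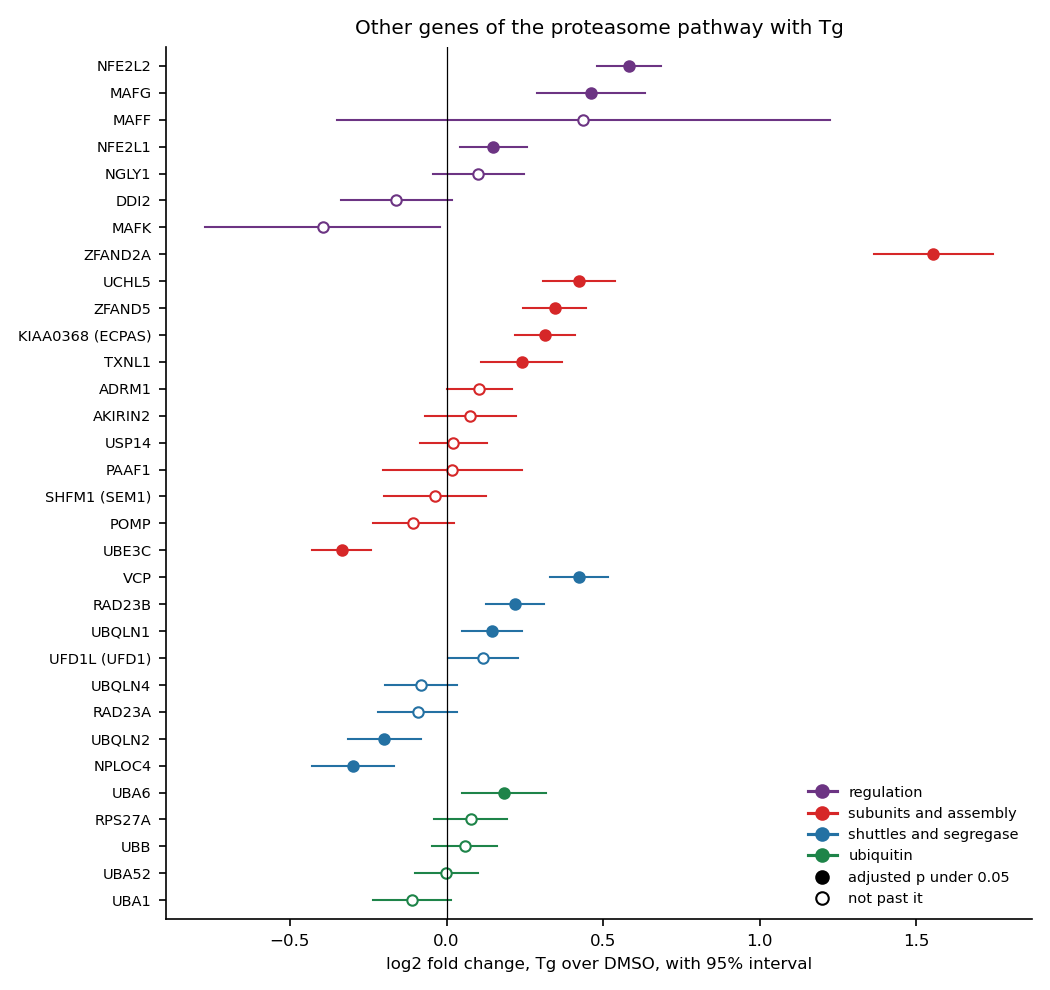
Log2 fold change of Tg over DMSO with its 95% interval (horizontal axis) for 32 of the 33 measured pathway genes outside the naming rule, in 4 sets by colour; filled points passed the test. ZFAND2A stands apart at 1.55, and the points of POMP, ADRM1 and SHFM1, at -0.11, 0.10 and -0.04, are not filled.

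With the IXA compounds no member passed the test against DMSO, and none did so in any edgeR alternative. For IXA1 that is 0 of 45, where 2.31% of all genes passed; for IXA4 0 of 45, where 0.8% passed; and for IXA6 0 of 45, where 2.29% passed. An unadjusted p under 0.05 was met by 6 of 45 members with IXA1 (15.5% of all genes), 5 with IXA4 (9.18% of all genes) and 9 with IXA6 (17% of all genes). DESeq2 called 0 members with IXA1 (4.36% of all genes), 0 with IXA4 (1.18% of all genes) and 1 with IXA6, PSMB6 (5.01% of all genes). Since so few genes of the whole table passed, a count of 0 does not set the members apart. The 95% intervals bound what could have been missed: over the 44 genes they span -0.43 to 0.36 with IXA1, -0.33 to 0.28 with IXA4 and -0.31 to 0.28 with IXA6 on the log2 scale.

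The members' medians with IXA1, IXA4 and IXA6 were -0.03, -0.03 and -0.02, and no member went beyond 1.2-fold. With IXA1 the extremes were PSMG3, which encodes the assembly chaperone PAC3, at -0.21 ± 0.09 (SE, adjusted p = 0.269) and PSME1, a subunit of the activator PA28, at 0.17 ± 0.10 (SE, adjusted p = 0.427). PSMG3 had 43.3 and 34.0 CPM with IXA1 against 50.4, 42.8 and 41.4 with DMSO. Thus 1 IXA1 library lay below the DMSO libraries and the other among them, and DMSO replicate 1 lay above the rest. With IXA4 they were PSMG2 at -0.16 ± 0.08 (SE, adjusted p = 0.565) and the alpha subunit gene PSMA3 at 0.13 ± 0.06 (SE, adjusted p = 0.466). With IXA6 they were PSMB6 at -0.19 ± 0.06 (SE, adjusted p = 0.0783) and again PSMA3 at 0.14 ± 0.06 (SE, adjusted p = 0.187).

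PSMB6 with IXA6 came nearest to the threshold. It had 82.9, 84.3 and 89.6 CPM with IXA6, 88.9, 90.3 and 87.1 with IXA4, 98.6 and 96.7 with IXA1 and 95.2, 103 and 95.02 with DMSO. The IXA6 and the IXA4 libraries all lay below the DMSO libraries, and the IXA1 libraries lay among them. Of the 44 genes 10 lay wholly below DMSO with IXA6 and 2 wholly above, and with IXA4 5 below and 1 above. With IXA1, which had 2 libraries, 8 lay below and 7 above. Of all genes 12.0% lay below and 12.0% above with IXA6, 8.90% and 9.20% with IXA4, and 17.3% and 17.6% with IXA1. Whether the members differ from all genes in this was not tested. For the other catalytic genes the log2 fold changes with IXA1, IXA4 and IXA6 were -0.03, -0.06 and -0.15 for PSMB5 and 0.04, -0.05 and -0.05 for PSMB7, none past the threshold. All 7 standard beta genes lay below 0 with IXA4 and with IXA6, under each scaling tried, and summed to 1159 ± 20.1 CPM with IXA4, 1151 ± 28.7 CPM with IXA6 and 1215 ± 48.1 CPM with DMSO (SD). With IXA1 3 of these 7 lay below 0 (2 under the other scalings), and all 7 alpha genes did (6 under the other scalings), by 0.19 at most. PSMB10 lay at 0.13 with IXA1, 0.04 with IXA4 and 0.10 with IXA6, and PSMD14 at -0.11, 0.02 and 0.02, also not past the threshold. These comparisons share the DMSO libraries, so that their values are not independent of each other.

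**Figure D4:**
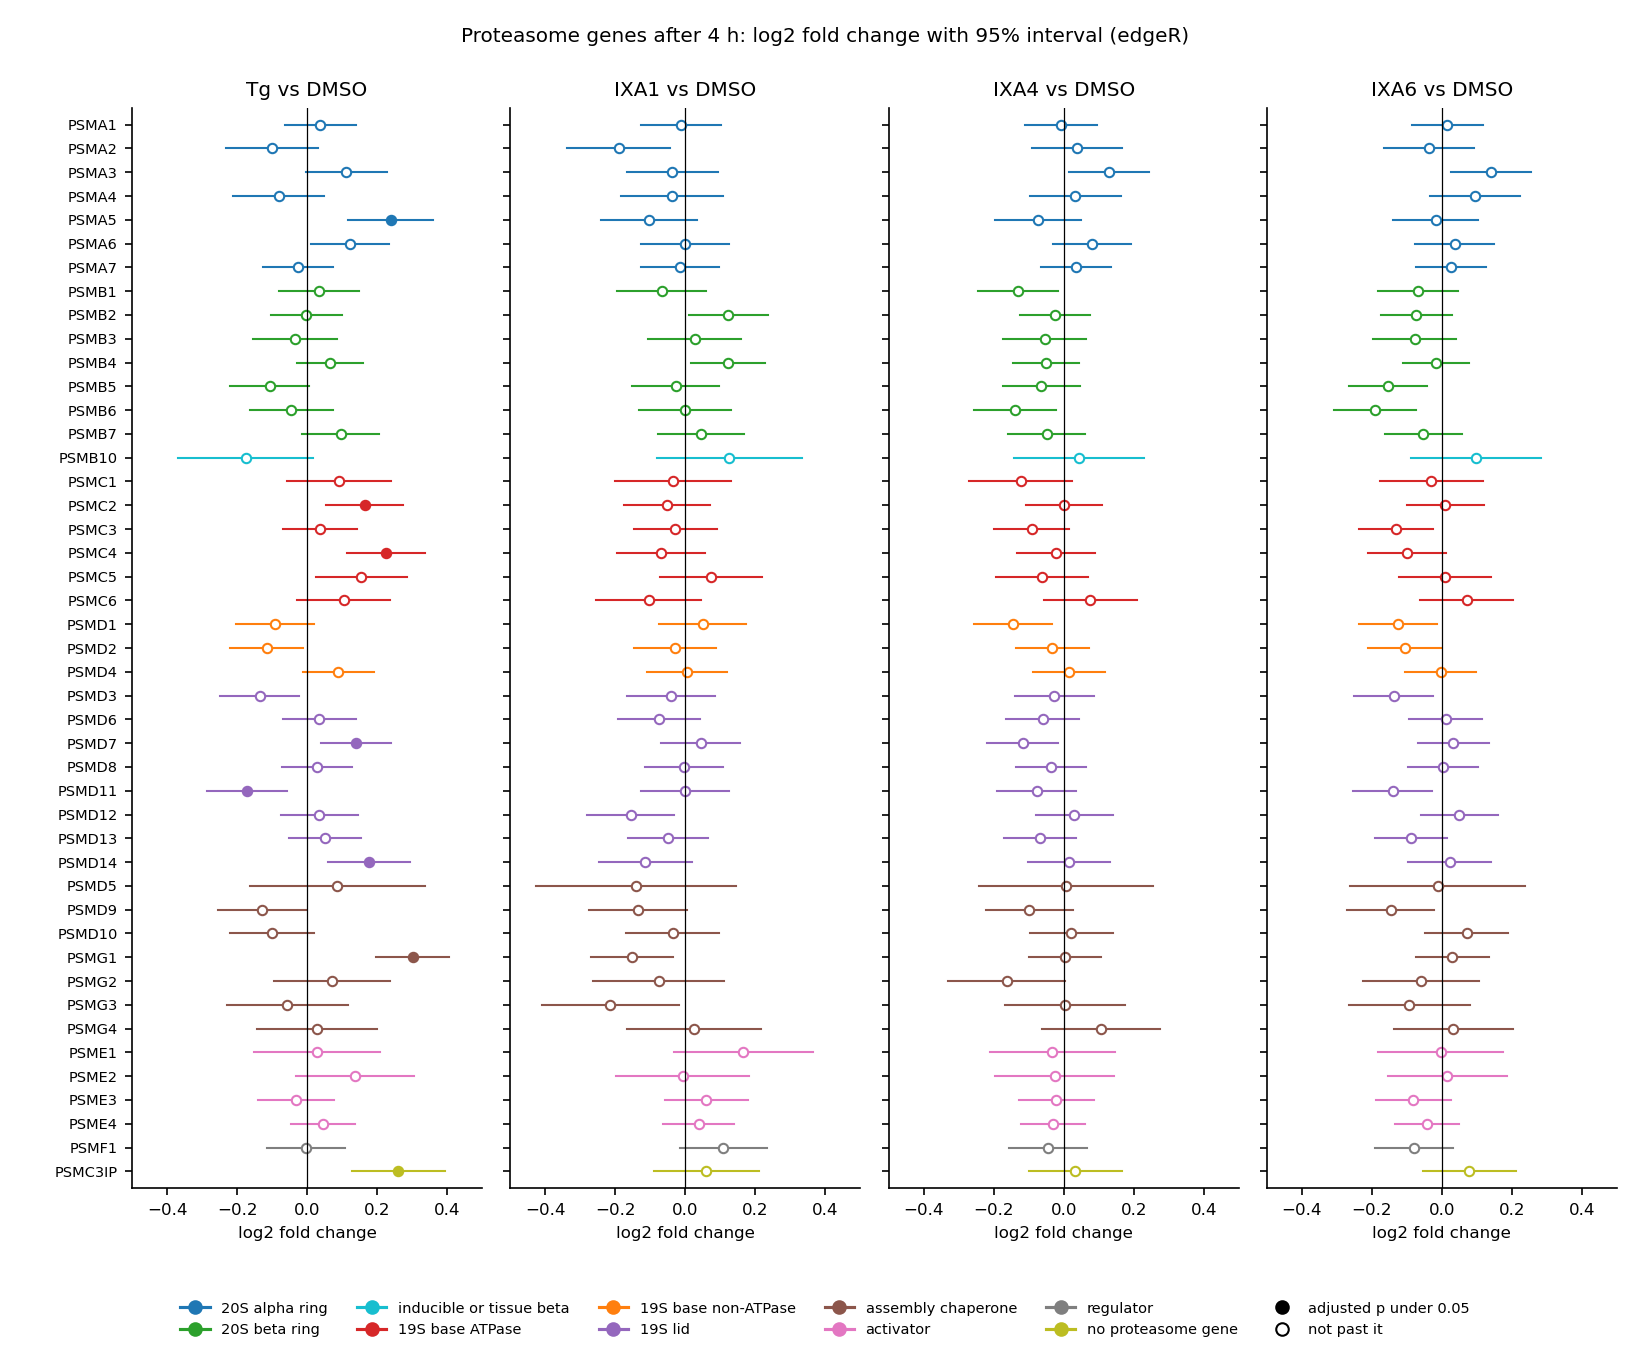
Log2 fold change over DMSO with its 95% interval (horizontal axes) of each of the 45 symbols, ordered and coloured by role, for Tg, IXA1, IXA4 and IXA6; filled points passed the test. Filled points occur in the Tg panel alone, 7 to the right of 0 and PSMD11 to the left, and all 6 ATPase points there lie right of 0.

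Tg was also set against each IXA compound. Against IXA1 10 members passed, 8 higher and 2 lower with Tg, where 33.9% of all genes passed. Against IXA4 12 passed, all higher with Tg, where 34.4% of all genes passed, and against IXA6 12 passed, 9 higher and 3 lower, where 31% passed. The split by direction rests on the scaling here too. With upper-quartile factors 10 members passed against IXA1, 5 higher and 5 lower, where 35% of all genes passed. Against IXA4 13 passed, 6 higher and 7 lower, where 36.8% of all genes passed, and 6 of the 13 were also called with TMM factors. Against IXA6 6 passed, 3 higher and 3 lower, where 32.1% of all genes passed. Under either scaling, as against DMSO, the share of members called was below that of all genes. With TMM factors it was 22.2% of the 45 members against IXA1, 26.7% against IXA4 and 26.7% against IXA6. The last of these lies near the 31% of all genes. Whether the members differ from all genes in this was not tested. The 4 comparisons share the Tg libraries. PSMG1, PSMA5, PSMC4, PSMC2, PSMD14 and PSMC3IP were higher with Tg than in each of the other 4 groups, and no member was lower than in all of them. How many of all genes met either condition was not counted, so this does not set the members apart. The count of members higher in all 4 comparisons was 3 (PSMG1, PSMA5 and PSMC4) with upper-quartile factors and with only the compared groups in the fit. It was also 3 without any of Tg replicate 1, Tg replicate 3 or IXA6 replicate 2. PSMG1 stood 0.45 ± 0.06 above IXA1, 0.30 ± 0.05 above IXA4 and 0.27 ± 0.05 above IXA6 on the log2 scale (SE; adjusted p = 1.32e-06, 5.50e-05 and 1.77e-04). PSMC4 stood 0.29 ± 0.06, 0.25 ± 0.05 and 0.33 ± 0.05 above them, and PSMA5 0.34 ± 0.07, 0.31 ± 0.06 and 0.26 ± 0.06. PSMB10 had 12.8, 12.3 and 12.4 CPM with Tg, against 15.7 and 15.2 with IXA1 and 15.3, 15.0 and 15.1 with IXA6, and the Tg libraries lay below all of these. It was lower with Tg than with IXA1 (log2 fold change -0.30 ± 0.10 SE, adjusted p = 0.0259) and than with IXA6 (log2 fold change -0.27 ± 0.09 SE, adjusted p = 0.0267). Both calls were lost in DESeq2. The call against IXA1 was also lost with only the compared groups in the fit and without any of IXA1 replicates 1 and 2 or Tg replicate 3, and the call against IXA6 without any IXA6 library or Tg replicate 2 or 3. The 2 other falls against IXA6 were PSMA4 and PSMD10, and the other fall against IXA1 was PSMD11.

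Between the IXA compounds 3 pairs were compared, at unknown doses. For IXA1 against IXA4 0 of 45 members passed where 2.58% of all genes did; 13 had an unadjusted p under 0.05 (17.3% of all genes), DESeq2 called 3 (7.57% of all genes), and a fit of these groups alone called 9 (8.79% of all genes). For IXA1 against IXA6 2 passed, where 7.35% of all genes did. PSMB2, a beta subunit gene, had 267 and 279 CPM with IXA1 against 236, 238 and 242 with IXA6 (log2 fold change 0.20 ± 0.05 SE, adjusted p = 0.0309). PSMD12, a lid subunit gene, had 139 and 142 CPM with IXA1 against 174, 164 and 148 with IXA6 (log2 fold change -0.21 ± 0.06 SE, adjusted p = 0.0393). The groups did not overlap in either gene, but both calls were lost without any of IXA1 replicates 1 and 2 or IXA6 replicates 1 and 2, with an adjusted p of up to 0.214 for PSMB2 and 0.265 for PSMD12. With the replicate block, and with only the compared groups in the fit, PSMB2 and PSMD1 were called and PSMD12 was not. For IXA4 against IXA6 0 of 45 members passed, as did 0% of all genes in edgeR; 1 member had an unadjusted p under 0.05 (9.23% of all genes), and DESeq2 called none of the members (0.251% of all genes). The intervals of that difference span -0.27 to 0.27 over the 44 genes, so differences of that size between IXA4 and IXA6 could have been missed.

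The authors' deposited tables of log2 fold changes gave nearly the same picture. In the authors' deposited table for Tg 7 members had an adjusted p under 0.05, where 29.1% of the genes with an adjusted p did. These were the 8 named above without PSMD7, with PSMG1 at 0.30 and PSMD11 at -0.17. In the authors' deposited table for IXA1 PSMD12 alone passed (log2 fold change -0.15, adjusted p = 0.0352), where 5.89% of genes did. In the authors' deposited table for IXA4 0 members passed, where 2.11% of genes did. In the authors' deposited table for IXA6 PSMB6 alone passed (log2 fold change -0.19, adjusted p = 0.0494), where 5.2% of genes did. Log2 fold changes of members differed from those of the fit here by at most 0.0021 for Tg, IXA4 and IXA6 and by up to 0.087 for IXA1, the group in which 1 column was not used here.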

How the data were processed

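RNA was measured by RNA-seq in 15 samples. The labels' protocols speak of independent experiments, and p-values measure the spread between those. The authors deposited whole-number counts per gene symbol. Per the submitters' processing notes the build was GRCh37.p13 and DESeq was used; no source used here names the aligner, the counter or the use of strand. Further files of the authors hold their deposited log2 fold changes and adjusted p-values; they do not name the group below the ratio, and in those for the IXA compounds the sign of the test statistic is opposite to that of the fold change, which was used as it stands. Of the count columns 14 were used; 1 fits no title and was left out. Rows with a date in place of a symbol (22, at most 0.282% of counts) stayed in the fit.

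Counts were fitted in R 4.3.3 with edgeR 4.0.16 (TMM, default expression filter, which removed 0 genes, quasi-likelihood test, all groups in 1 fit), after a test on simulated data, with Benjamini-Hochberg adjustment over 13243 genes in each of 10 comparisons. No libraries were identical. Alternatives were DESeq2 1.42.0, other scalings and filters, a replicate block, fits of the compared groups alone and leaving out each library.

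Members named with values are those called against DMSO or between IXA compounds, the catalytic and inducible subunit genes, PSMD14, and the lowest and highest member of each DMSO comparison, with up to 8 called genes of the pathway list; others are named as context. Members, rule and lists were chosen with earlier results of these data known. Lengths came from GENCODE release 29, and promoters, overlapping genes and pseudogene names from RefSeq (GRCh38.p14), matched by symbol. Of the members 21 have named pseudogenes (52 in all) and 6 overlap another measured gene, which leaves their values uncertain. Of the pathway list 1 gene is counted but not reported here. Figures were drawn with matplotlib 3.10.9.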

Additional observations from a re-analysis of the deposited data

How the results depend on the processing

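The counts of members called moved by more than 1.5 times in these cases; the cause was not tested. DESeq2 called 1 for IXA6 against DMSO (0 in edgeR), 3 for IXA1 against IXA4 (0) and 6 for IXA1 against IXA6 (2). A fit of the compared groups alone called 5 for Tg against IXA1 (10), 4 for Tg against IXA6 (12) and 9 for IXA1 against IXA4 (0), and gave 3 members higher with Tg than in every other group (6). Upper-quartile factors called 6 for Tg against IXA6 (3 higher and 3 lower), gave 3 members higher with Tg than in every other group, and turned the members' median for Tg against DMSO to -0.0068. A minimum mean of 5 CPM gave 4 for IXA1 against IXA6. Shares of all genes are given above for some of these cases. For IXA1 against IXA6 in these settings, and for Tg in fits of the compared groups alone, no share is given. Those counts therefore do not set the members apart from other genes.

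Leaving out each library in turn gave 5 to 12 members for Tg against DMSO, 6 to 15 against IXA1, 6 to 15 against IXA4, 4 to 10 against IXA6, 0 to 4 for IXA1 against IXA6 and 3 to 6 members higher with Tg than in every other group; the members' median for Tg against DMSO ran from 0.023 to 0.070. Over all genes the counts moved as well. They ran from 3843 to 5009 for Tg against DMSO, 3687 to 4626 for Tg against IXA4 and 3243 to 3946 for Tg against IXA6. Some fits for the comparisons with IXA1 leave 1 IXA1 library, and no range over all genes is given for those comparisons. Their counts of members therefore do not set the members apart from other genes. Where leaving out a library leaves 1 IXA1 library, that library is assumed to vary like the other groups. Values near 0 changed sign, with none past the threshold. For PSMB6 with IXA1 they were 0.0051 with RLE factors, 0.0070 with upper-quartile factors, 0.0015 with a minimum of 5 CPM, 0.0030 with the replicate block and 0.0051 in DESeq2. On leaving out libraries they ran from -0.020 to 0.039 for PSMB6 with IXA1, -0.085 to 0.0050 for PSMB6 with Tg, -0.095 to 0.038 for PSMB5 with IXA1, -0.023 to 0.11 for PSMB7 with IXA1, -0.010 to 0.13 for PSMB10 with IXA4, -0.020 to 0.040 for PSMD14 with IXA4 and -0.014 to 0.057 for PSMD14 with IXA6.

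Same-numbered libraries of different groups correlated between -0.21 and 0.22 in their deviations from the group means (18 pairs, 4 over 0.1). Libraries of unlike number were not compared, so these values cannot decide whether the numbers pair the samples. With the replicate number as a block 1 member was called for IXA1 against IXA4 (0 without it), and PSMD1 replaced PSMD12 among the 2 called for IXA1 against IXA6. For Tg against DMSO 9 were called, and 5 members were higher with Tg than in every other group. The block was an alternative chosen after seeing the data, and no shares of all genes are given for it.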
